A study of Populus trichocarpa with 12 samples.

Results

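The laccase trio of chromosome 9 consists of the loci Potri.009G156600, Potri.009G156700 and Potri.009G156800, which follow each other directly in the order of identifiers. They were picked by identifier as 3 adjacent laccase loci, from an earlier look at these data in which all 3 stood lower in trees that overexpress miR397a. The 3 loci are 3 of 41335 in the table, each has 1 transcript model, and all 3 passed the filter on low counts that left 26298 loci for testing. The difference between transgenic and wild-type trees chose them, so it is given below as a description without a test. The deposited table does not pair identifiers with names, so the name laccase rests on the choice of loci and was not checked against sequence. The copies are called by their identifiers, and Potri.009G156600 and Potri.009G156800, on either side of Potri.009G156700, are called the outer copies.

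Laccases are secreted copper enzymes that oxidise monolignols, the alcohol precursors of lignin, to radicals that couple into the polymer in the cell wall. Plants carry many laccase genes, and neighbouring copies commonly arise by tandem duplication. The microRNA miR397 is known in several plants to pair with laccase mRNAs and to direct their cleavage. Developing xylem, the young wood inside the cambium, is the tissue in which lignification of a tree stem takes place.

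RNA of developing xylem was sequenced from 12 greenhouse-grown black cottonwood trees (Populus trichocarpa), all of the Nisqually-1 genetic background. In 9 transgenic trees PtrMIR397a was overexpressed from the CaMV 35S promoter, a viral promoter active in most plant tissues. Each of these is a separate line, named here by its number (1, 3, 5, 6, 9, 10, 17, 26 and 30), and is represented by 1 tree. The other 3 trees were wild type. The sources used here do not give tree age. Summed over loci, the libraries held 8015226 to 34112839 reads. The 9 neighbouring loci from Potri.005G132300 to Potri.005G133100 on chromosome 5 took 1.14% to 18.9% of these reads, and this share is set beside the results that it touches. Markers of xylem and of other tissues could not be identified among the unnamed loci, so the tissue label was not checked. Because whole tissue was sequenced, fewer cells of a type and less RNA per cell cannot be told apart.

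All 3 copies stood lower in every line than in every wild-type tree. Levels are CPM, the read count of a locus scaled to a common library size after TMM normalisation, and no gene length enters them, so they compare trees and not copies.

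Potri.009G156600 had 347, 188 and 224 CPM in wild-type trees 1, 2 and 3. Among the lines it had a lowest value of 53.0 CPM in line 6, a median of 80.5 CPM and a highest value of 109 CPM in line 1. Wild-type tree 1 was the highest of all trees, and the lowest wild-type tree stood 1.73 times above the highest line. The means were 253 ± 83.0 CPM in wild type (SD, n = 3) and 78.3 ± 21.9 CPM across the lines (SD, n = 9), with a fitted log2 fold change of -1.69 ± 0.22 (SE).

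Potri.009G156800 had 387, 211 and 258 CPM in wild-type trees 1, 2 and 3. Its lowest level among the lines was 46.6 CPM in line 6, its median 66.3 CPM and its highest 90.6 CPM in line 17. The wild-type trees took the same order as for Potri.009G156600, and the gap between the groups was wider, 2.33 times from the highest line to the lowest wild-type tree. The means were 286 ± 90.8 CPM (SD, n = 3) and 64.6 ± 17.0 CPM (SD, n = 9), with a fitted log2 fold change of -2.14 ± 0.21 (SE).

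Potri.009G156700 had the fewest reads of the trio, 57 to 407 per line and 363 to 1008 per wild-type tree. Its level was 49.6, 37.3 and 31.6 CPM in wild-type trees 1, 2 and 3. It ran from 4.40 CPM in line 6 over a median of 7.18 CPM to 18.1 CPM in line 1. The lines spanned a 4.13-fold range here, against 2.05-fold for Potri.009G156600 and 1.95-fold for Potri.009G156800, and still lay below all wild-type trees. The means were 39.5 ± 9.20 CPM (SD, n = 3) and 9.52 ± 4.58 CPM (SD, n = 9), with a fitted log2 fold change of -2.03 ± 0.32 (SE).

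**Figure D1:**
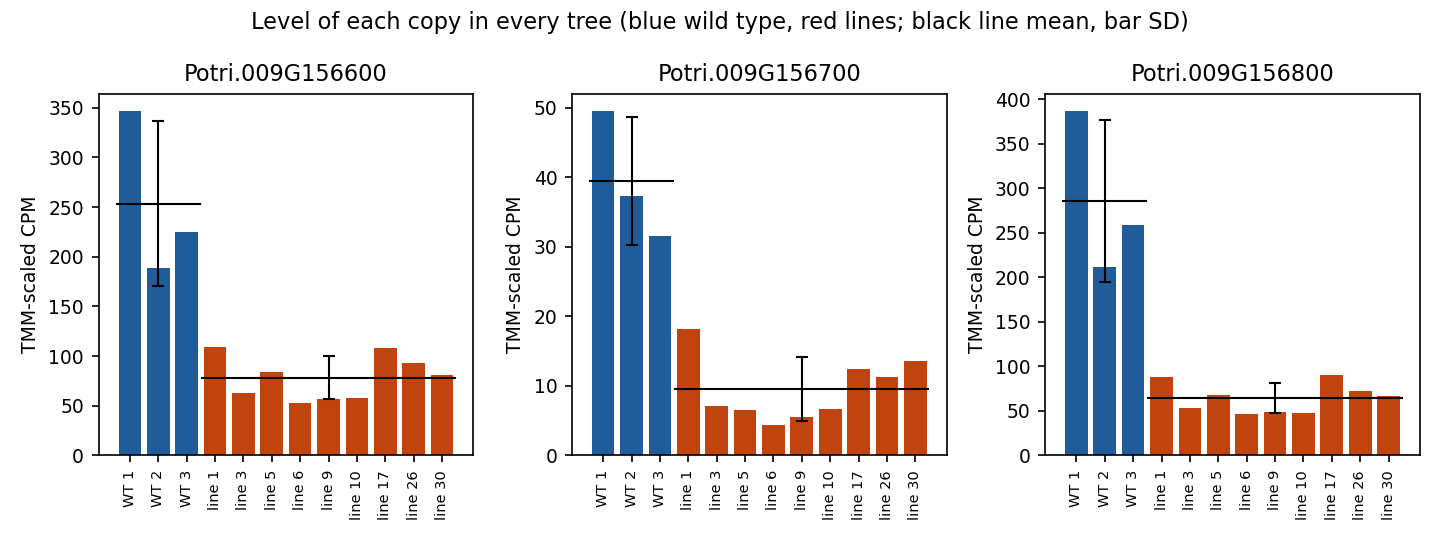
Level of Potri.009G156600, Potri.009G156700 and Potri.009G156800 in each tree, in CPM after TMM scaling on a linear axis from 0, with 1 bar per tree, a horizontal line at the group mean and an error bar of 1 SD. In every panel the 9 lines lie below the 3 wild-type trees, and wild-type tree 1 is the highest tree, at 347, 49.6 and 387 CPM.

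All 3 copies were among the 21 loci called lower in the lines, which were 0.0799% of the 26298 loci tested (quasi-likelihood test of edgeR over the whole table, at a Benjamini-Hochberg adjusted p under 0.05). Every line was below every wild-type tree at 1.18% of the tested loci. Both shares are given for reference, and nothing is read from them because the same contrast chose the trio. The calls of single copies depended on the trees included, which is given as a description and not as a measure of how firm each difference is. Potri.009G156800 was called whichever tree was left out. Potri.009G156600 lost its call without wild-type tree 1, where its log2 fold change was -1.40. Potri.009G156700 lost its call without line 3, line 10, line 17 or any one wild-type tree, at log2 fold changes of -2.16 to -1.84, close to the -2.03 with all trees.

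Summed over the trio, the level was 783, 437 and 514 CPM in wild-type trees 1, 2 and 3 and had a mean of 578 ± 182 CPM (SD, n = 3). The lines had a mean of 152 ± 42.8 CPM (SD, n = 9), which was 26.4% of the wild-type mean. In ascending order they stood at 104 CPM (line 6), 110.5 CPM (line 9), 112 CPM (line 10), 123 CPM (line 3), 159 CPM (line 5), 161 CPM (line 30), 177 CPM (line 26), 211 CPM (line 17) and 215 CPM (line 1). Lines 6, 9 and 10 differed by less than 10 CPM, as did lines 5 and 30 and lines 17 and 1, and with 1 tree per line no error between trees of a line can be given. The lowest line kept 18.0% of the wild-type mean and the highest 37.1%.

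The difference in the summed level was larger in the libraries with a high share of reads on the chromosome 5 stretch. Among the 6 libraries with the lower share (5 lines and wild-type tree 2) the wild-type level was 2.57 times the mean of the lines. Among the 6 with the higher share (4 lines and wild-type trees 1 and 3) it was 4.97 times. This split was made after the data were seen, and the first set has 1 wild-type tree. Within the 9 lines alone, the correlation of the summed level with this share was not past the threshold (Pearson r = -0.46, exact permutation test, two-sided, p = 0.211, adjusted over 6 relations 0.422; Spearman rho = -0.23, exact permutation p = 0.552, adjusted 0.552; r = -0.61 without the 2 lines farthest from the median share).

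The 3 copies did not keep their proportions. In wild type the outer copies had nearly equal reads with Potri.009G156800 ahead, and in all 9 lines Potri.009G156600 was ahead. Both counts of this ratio come from the same library, so scaling and depth cancel, and a constant difference in length would not move it between trees. Reads that align to both copies do not cancel: how they were counted is not known, and their part in the ratio and in its shift was not tested.

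Wild-type trees 1, 2 and 3 had 0.896, 0.891 and 0.868 reads on Potri.009G156600 for each read on Potri.009G156800. The lines had at least 1.14 (line 6), a median of 1.21 and at most 1.27 (line 26). The ratio was below 1 in every wild-type tree and above 1 in every line, and the exact 95% intervals for counting error, 0.824 to 0.936 over the wild-type trees and 1.03 to 1.39 over the lines, did not meet. The means were 0.885 ± 0.0149 in wild type (SD, n = 3) and 1.21 ± 0.0406 in the lines (SD, n = 9), a shift of 0.45 on the log2 scale or 1.36-fold. The shift was between 0.43 and 0.46 on the log2 scale whichever tree was left out. It was also seen in both sets of libraries split by the chromosome 5 share, at 0.891 for wild type against 1.21 for the lines where the share was low and 0.882 against 1.21 where it was high. The shift comes from the contrast that chose the loci and carries no test.

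**Figure D2:**
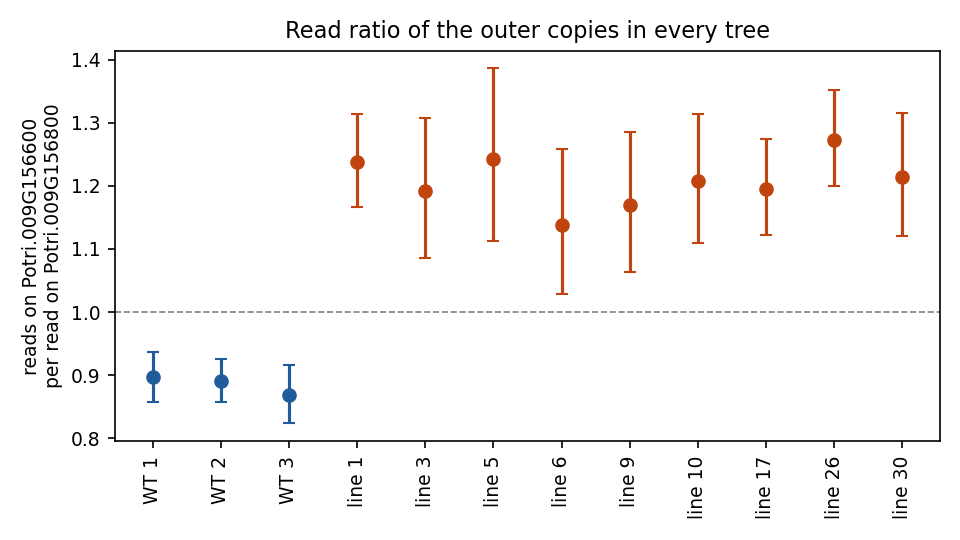
Reads on Potri.009G156600 per read on Potri.009G156800 in each tree, as a point with its exact 95% interval for counting error, and a dashed line at a ratio of 1. The 3 wild-type trees lie at 0.868 to 0.896 and the 9 lines at 1.14 to 1.27, with no overlap of the intervals.

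Within each group the ratio of the outer copies was steady. Among the lines the log2 ratio had an SD of 0.0486, while counting error alone would give about 0.0616. The chi-square statistic of the split over the 9 lines was 5.72 on 8 degrees of freedom, 0.715 per degree, where counting error alone gives about 1. Of the pairs of neighbouring loci described below, 6.09% had a value as low or lower. Over the 3 wild-type trees it was 0.451 per degree. The summed level meanwhile spanned 2.06-fold among the lines and 1.79-fold among the wild-type trees. Within the lines, the correlation of the log2 ratio with the summed level was not past the threshold (Pearson r = 0.67, exact permutation test, two-sided, p = 0.0503, adjusted over 6 relations 0.302; Spearman rho = 0.68, exact permutation p = 0.0503, adjusted 0.216; r = 0.35 without the 2 lines farthest from the median level). Its correlation with library size was not past it either (r = 0.29, exact permutation p = 0.457, adjusted 0.549; Spearman rho = 0.32, exact permutation p = 0.410, adjusted 0.492; r = 0.53 without the 2 lines farthest from the median size).

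In percent of the wild-type mean, every line kept more of Potri.009G156600 than of Potri.009G156800. This follows from the read ratios above and is no further result. The range over lines was 20.9% to 42.9% for the first and 16.3% to 31.7% for the second. Potri.009G156700 kept 11.1% (line 6) to 46.0% (line 1). It kept more than Potri.009G156800 in 4 lines, more than both outer copies in lines 1 and 30, and the least of the trio in 5 lines. Some of these orders are near ties. Against Potri.009G156800 it kept 16.8% to 16.7% in line 10, 31.4% to 31.7% in line 17 and 18.2% to 18.5% in line 3. With 140, 246 and 114 reads on Potri.009G156700 there, these 3 orders are not resolved.

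The share of Potri.009G156700 in the reads of the trio varied between trees of the same group. It took 6.33%, 8.53% and 6.14% of the reads of the 3 loci in wild-type trees 1, 2 and 3. In the lines the share ran from 4.10% in line 5 over a median of 5.86% to 8.51% in line 30, so the groups overlapped. Line 1, at 8.45%, was close to line 30 and to wild-type tree 2. The 95% exact interval was 3.12% to 5.28% for line 5 and 7.47% to 9.63% for line 30, so these lines differed by more than counting error. The chi-square statistic of this split was 11.0 per degree of freedom over the lines and 25.4 over the wild-type trees. Values above 1 are common, as the median over lines was 4.77 for the pairs of neighbouring loci described below. The group means were 7.0 ± 1.33% in wild type (SD, n = 3) and 6.03 ± 1.59% in the lines (SD, n = 9), within the spread of each. The outer copies took 43.7 ± 0.588% (Potri.009G156600) and 49.3 ± 0.936% (Potri.009G156800) of the reads in wild type (SD, n = 3), against 51.4 ± 0.894% and 42.6 ± 1.28% in the lines (SD, n = 9).

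The copies were also compared by how they varied together among the 9 lines, which is not the difference that chose the loci. Their variation among lines had nonetheless been seen in the earlier look, so the p-values below are not from unseen data. The outer copies moved together almost without scatter, and Potri.009G156700 followed them more loosely. Log2 levels of the outer copies had a Pearson r of 0.996 (exact permutation test, two-sided, p = 1.1e-05, adjusted over 3 pairs 3.31e-05) and a Spearman rho of 0.97 (exact permutation p = 0.000165, adjusted 0.000496). With the 2 most distant lines, 6 and 9, left out, r was 0.996 (exact permutation p = 0.000397). Potri.009G156600 and Potri.009G156700 had r = 0.87 (exact permutation p = 0.00591, adjusted 0.00629) and rho = 0.82 (exact permutation p = 0.0108, adjusted 0.0162). Without lines 6 and 9 this r was 0.76 and no longer past the threshold (exact permutation p = 0.0556). Leaving out these lines shortens the range and leaves 7 lines, which alone can lower r and raise p. With only line 6 or only line 9 left out the pair stayed past the threshold (exact permutation, adjusted p = 0.0228 and 0.0154). Potri.009G156700 and Potri.009G156800 had r = 0.86 (exact permutation p = 0.00629, adjusted 0.00629) and rho = 0.75 (exact permutation p = 0.0255, adjusted 0.0255). Here lines 1 and 30 were the farthest, and r was 0.87 without them (exact permutation p = 0.00516), but 0.77 without lines 6 and 9 (exact permutation, adjusted p = 0.0567). The copies share a library and its scaling factor in each line. The sources used here do not say how reads that align to more than 1 copy were counted, and the part of such reads in these correlations was not tested.

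**Figure D3:**
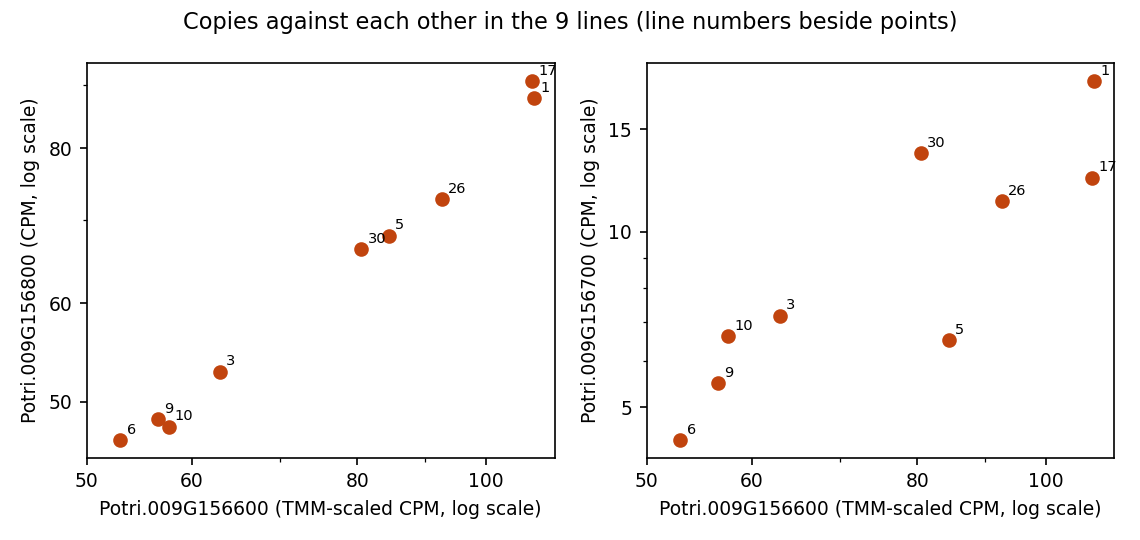
Level of Potri.009G156800 (left) and Potri.009G156700 (right) against Potri.009G156600 in the 9 lines, in CPM after TMM scaling on log axes, with 1 point per line and its number beside it. The left points lie close to 1 straight line (r = 0.996), while on the right (r = 0.87) line 30 lies above and line 5 below the others of like Potri.009G156600 level.

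To set these values against the rest of the table, 7910 other pairs of tested loci with successive identifiers and a mean of at least 100 reads each were described in the same way. Pairs in which either locus lacked reads in any tree were left out, which can remove large shifts. Pairs of a copy with a locus outside the trio were not left out. Their r across the lines had a median of 0.17, it reached the lowest of the trio (0.86) in 10.7% of pairs, and it reached that of the outer copies in 2.81%. The read ratio did not overlap between lines and wild type in 3.3% of pairs. The SD of the log2 ratio among lines had a median of 0.2415 and was below the 0.0486 of the outer copies in 3.27% of pairs. The SD, r and chi-square per degree of freedom depend on read depth, as few reads raise the SD and lower r. The pairs were not matched for depth: they needed a mean of 100 reads, while each outer copy had at least 595 reads in every tree. These shares therefore do not single out the outer copies as unusually steady. Some pairs came from runs of successive loci with almost the same mean reads, with an SD and a shift at or near 0. Such pairs add to the share with a low SD and were not left out. How their reads were counted is not known. The shift between the groups had a median size of 0.14 and was at least as large as the 0.45 of the outer copies in 9.2% of pairs. The outer copies were singled out for this description after their values were seen, and they are 1 locus apart where the other pairs are direct neighbours.

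**Figure D4:**
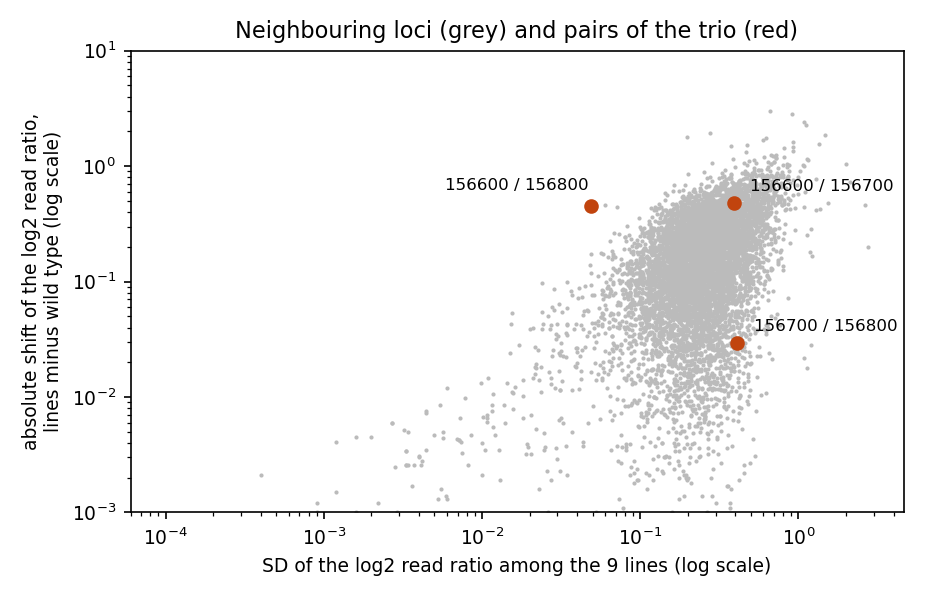
Size of the shift of the log2 read ratio between lines and wild type (vertical, log axis) against the SD of that ratio among the 9 lines (horizontal, log axis), with 1 grey point for each of the other 7910 pairs of neighbouring loci, of which 110 lie below or left of the axes, and 3 red points for the pairs within the trio. The outer copies stand at an SD of 0.0486 and a shift of 0.45, and the pairs with Potri.009G156700 at SDs of 0.391 and 0.412.

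The loci on either side of the trio were not called. Of the 8 nearest tested loci on each side, 0 of 16 were called by edgeR, 0 by DESeq2 and 0 by limma-voom, and 2 had an unadjusted edgeR p below 0.05. Of all tested loci, 0.0799% were called lower by edgeR and 11% had such an unadjusted p. In counts, edgeR called 21 loci lower and 3 higher, DESeq2 59 and 72, and limma-voom 20 and 1. The counts for the neighbours are thus near the background. The locus directly before the trio, Potri.009G156500, stood at 15.9 ± 3.44 CPM in wild type (SD, n = 3), against 13.6 ± 1.13 CPM in the transgenic trees (SD, n = 9; log2 fold change -0.21 ± 0.12 SE, edgeR adjusted p = 0.523). The locus directly after it, Potri.009G156900, stood at 3.97 ± 0.545 and 3.68 ± 0.698 CPM (log2 fold change -0.11 ± 0.18 SE, edgeR adjusted p = 0.846). The lowest of the 16 was Potri.009G156000, with -0.72 ± 0.20 on the log2 scale (SE; adjusted p = 0.316 in the edgeR fit), and the highest was at 0.23. No names are paired with these loci in the sources used here.

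**Figure D5:**
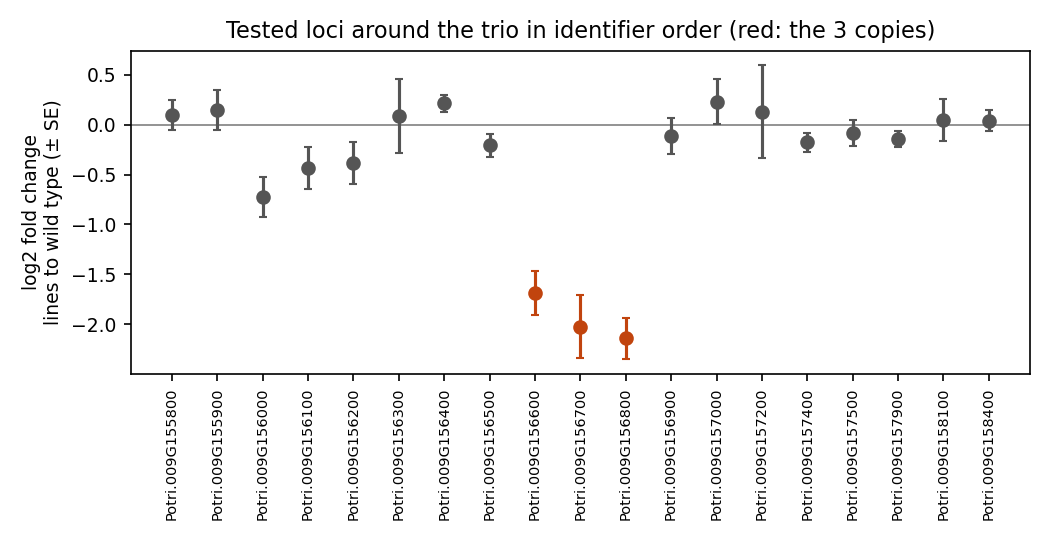
Fitted log2 fold change of the lines to wild type with its SE (vertical) for the trio (red) and the 8 tested loci on either side (grey), in the order of their identifiers (horizontal). The trio lies at -2.14 to -1.69 and the 16 other loci at -0.72 to 0.23.

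Outside chromosome 3, 12 loci were called lower by at least 2-fold, the trio among them. The copies varied more between the wild-type trees than most of the others. A call favours loci with a low spread within groups, and the spread over all tested loci was not computed. Over the 3 wild-type trees the coefficient of variation was 32.8% for Potri.009G156600, 23.3% for Potri.009G156700 and 31.8% for Potri.009G156800. It was 4.98% to 5.65% for the 3 called neighbours on chromosome 6 (Potri.006G096900 to Potri.006G097100), 2.98% for Potri.008G073700 and 8.04% for Potri.010G183600. It was 5.68% for Potri.016G112000, 20.7% for Potri.016G112100 and 11.6% for Potri.001G054600. At Potri.001G184300 on chromosome 1 it was 34.8%, with 165 CPM in wild-type tree 1, 80.7 CPM in tree 2 and 118 CPM in tree 3, the order of the outer copies. The chromosome 5 share took the same order, at 18.9%, 2.80% and 16.0% of reads in wild-type trees 1, 2 and 3, and its part in these levels was not tested. With 3 trees the differences in spread were not tested either.

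Potri.001G184300 also stood near the summed trio in its pattern across the 9 lines, with r = 0.91, the rank of 10 among 23878 loci with a mean of at least 1 CPM. The other 8 of these called loci had r from 0.37 to 0.72. The 5 loci outside the trio with the highest r were Potri.009G131200 (0.955), Potri.018G087100 (0.948), Potri.004G123900 (0.942), Potri.016G121100 (0.937) and Potri.015G116100 (0.936). The groups overlapped at each of these 5, of which 0 were called by edgeR, DESeq2 or limma-voom and 1 had an unadjusted edgeR p below 0.05. Of all tested loci, 0.0799% were called lower by edgeR and 11% had such an unadjusted p, and the calls of each method in both directions are given above. Every line was below every wild-type tree at 1.18%, and loci with every line above were not counted. The counts for the 5 are thus near the background. The median r over all ranked loci was 0.011. These r are over 9 trees that share libraries and scaling, were the highest of many, and are a description.

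Potri.011G041300, which is nearly silent in wild type and expressed in the lines, varied against the copies. Across the 9 lines r was -0.76 with Potri.009G156600, -0.74 with Potri.009G156700 and -0.78 with Potri.009G156800. With the summed trio r was -0.77, the rank of 23627 among 23878 loci counted from the highest r. Line 10 had the most of Potri.011G041300, 81.7 CPM, and line 6 followed with 56.5 CPM, both lines with a summed trio level of at most 112 CPM. The order was not strict. Line 5 had 41.8 CPM at a middle trio level of 159 CPM, and line 9 only 35.1 CPM at a low trio level of 110.5 CPM. Lines 1 and 17 had the least, 23.4 and 23.9 CPM, and the 2 highest trio levels. This relation was known from the earlier look for a larger set of loci that includes the trio, so it is no separate evidence.

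The proportions within other runs of called neighbours were measured in the same way. On chromosome 6 the log2 ratio of Potri.006G096900 to Potri.006G097000 moved by 0.17 from wild type to the lines (SD among lines 0.0487). That pair too had ratios without overlap between the groups, a chi-square per degree of freedom of 0.88 over the lines and r = 0.977 across them. The log2 ratio of Potri.006G097000 to Potri.006G097100 moved by 0.0010 (SD 0.0527). On chromosome 16 the log2 ratio of Potri.016G112000 to Potri.016G112100 moved by -0.36 (SD 0.249). The shift of 0.45 for the outer copies of chromosome 9 was not tested against these.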

How the data were processed

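The authors deposited 1 table of raw read counts per transcript model (73013 rows) for the 12 libraries. The submitters' processing notes name bedtools 2.14.2, Bowtie, TopHat and TopHat2 2.0.3 without saying what each did. Build, annotation and the handling of multiply aligned reads were not given in the sources used here. Such handling could move reads between similar copies. Loci with several models were represented by their most read model. Lines and wild type were compared over the whole table with edgeR 4.0.16 (R 4.3.3; filterByExpr with a minimum count of 10, TMM, robust quasi-likelihood fit, Benjamini-Hochberg, threshold 0.05), which was tested on simulated data. SEs of log2 fold changes were derived from the F statistic. Correlations used log2 CPM with a prior count of 2 and all 362880 pairings of 9 lines. Intervals are exact (Clopper-Pearson, 95%) and, as no molecular identifiers are named, cover counting error only. DESeq2 1.42.0, limma-voom (limma 3.58.1) and other scalings, filters and left-out trees were alternatives.

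The members and lists were chosen with earlier results of these data known. Loci named in the text are the members, the loci beside them, the 5 most alike across lines and called loci outside chromosome 3 with at least 2-fold lower levels. The last, with Potri.011G041300 and Potri.009G156000, were added after values were seen. The chromosome 5 stretch is named as well and was not among the loci planned to be named. The reference gene table (P.trichocarpa_v4.1) matched 0 loci. The planned laccase and lignin lists, the marker lists and reads per coding length were therefore not run, and no sequence was used. The trees of a group are separate individuals per the labels' design text.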

Additional observations from a re-analysis of the deposited data

How the results depend on the processing

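Depth limits Potri.009G156700 most, with 57 reads in line 5. The log2 fold changes ranged over 21 alternatives from -1.87 to -1.40 for Potri.009G156600, -2.20 to -1.84 for Potri.009G156700 and -2.32 to -1.86 for Potri.009G156800, with the call lost in 1, 8 and 0 of them. Potri.009G156700 was not called with library totals or with no filter. All 3 copies were called with DESeq2 and limma-voom. The same contrast chose the copies, so these calls are a description and lend no support. Summing over models or taking the lowest model suffix cannot change the reads of these copies, which have 1 model each. Leaving out 1 tree left 1 to 3 of the 3 copies called, the 1 being without wild-type tree 1. The log2 ratio of the summed level, -1.92, was -2.09 to -1.64 with a tree left out and -1.36 in the 6 libraries with a low chromosome 5 share. The correlations of Potri.009G156700 with Potri.009G156600 and Potri.009G156800 fell to 0.763 and 0.768 without lines 6 and 9, no longer past the threshold with 7 lines, and leaving out 1 line gave 0.821 to 0.931 and 0.808 to 0.912. The shares and the shift of the outer copies moved by less than 1 SD in every alternative run for them. Most of this was fixed beforehand. Leaving out 1 tree cannot move a group mean by 1 SD, and summing over models leaves these reads unchanged. Only the split by the chromosome 5 share was free to move the shift further, which was 0.44 at a low and 0.46 at a high share. Over the whole table, 21 loci were called lower and 3 higher; DESeq2 called 59 and 72, library totals and limma-voom called 1 higher each, and leaving out 1 tree gave 14 to 54 lower (54 without line 1) and 1 to 11 higher. The cause of these shifts was not tested. Other scalings moved the median log2 fold change of all loci by at most 0.072. The alternative per coding length was not run. No paired analysis was possible because a number shared by a transgenic line and a wild-type tree does not mark a common origin.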
